A study of Mus musculus with 16 samples.

Results

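The genes described here carry glucose into the cell and take it through glycolysis and the pentose phosphate pathway. They are 41 genes chosen by name for their place in the pathway, of 46078 genes in the count table, and each of the 41 matched 1 gene of the table. They comprise 2 glucose carriers, 3 hexokinases, 7 genes of upper and 7 of lower glycolysis, 4 genes for lactate dehydrogenase and lactate carriers, 4 genes for PFK-2/FBPase-2, 4 pyruvate dehydrogenase kinases, 3 and 4 genes of the oxidative and non-oxidative pentose phosphate pathway, and 3 genes of side branches. The study compared gene expression by RNA-Seq in haematopoietic stem cells (HSCs) from the endosteal fraction, which stayed with the bone, and the central fraction of the bone marrow (BM), in WT and Gfra2-/- mice. Gfra2-/- mice lack, in every cell of the body, the GDNF family receptor alpha-2, on which cholinergic neurons depend, and served as a model of lost cholinergic innervation. HSCs were LSK CD48-CD150+ cells, sorted in pools of 30 from untreated mice of the strain C57/Bl6, and 4 endosteal and 4 central WT libraries were used, beside 4 endosteal and 3 central libraries labelled Gfra2-/-. The study calls the data biological replicates. The labels give no age and do not say whether the libraries of a group came from different animals, so p-values measure only the spread between these libraries.

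Glucose enters through carriers of the GLUT family and is trapped by hexokinases, which phosphorylate it. Glycolysis then splits the sugar and yields pyruvate, which lactate dehydrogenase turns into lactate or which enters the mitochondria through pyruvate dehydrogenase, an enzyme that the pyruvate dehydrogenase kinases switch off. The pentose phosphate pathway branches off after the hexokinases and supplies NADPH and ribose for nucleotides. Quiescent HSCs are known for their reliance on glycolysis and for keeping pyruvate out of the mitochondria.

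The central WT libraries had 826487 to 3367289 reads on genes and the other 11 libraries 4416648 to 18550008, so that depth and group cannot be told apart in either comparison with central WT HSCs. Libraries are lettered A to D within a group. Central WT libraries A and C fell short of the quality cut-offs of the study as applied here, with genes counted from 10 reads. Library A did so only in its number of genes, 8406 against a limit of 8500. Library C had 7461 genes and 1494725 mapped reads, against limits of 8500 and 1500000. Gfra2 itself had 4 reads or fewer in every WT library, so its loss was not detectable at this depth. Endosteal libraries B and D labelled Gfra2-/- had 47 and 9 reads, not expected from their label, and the other 5 so labelled 2 or fewer. Whether the label of B and D is wrong was not tested. The HSC markers Kit, Hlf and Procr were present in all 15 libraries. Cd48, against which the cells were sorted, was at 0 in only 2 libraries, with group medians of 2.28 to 5.39 CPM. Flt3, which another HSC gate of the study excluded, was also at 0 in only 2. Its medians were 11.96 and 0.155 CPM in endosteal and central WT pools, and 46.81 and 19.85 CPM in those labelled Gfra2-/-. Whether purity differed between the groups was not tested. The 5 endothelial genes summed to 88.5 to 444 CPM over the 15 libraries. Of these genes, Pecam1, Emcn and Tek were present in all 15 and Cdh5 was at 0 in all 15. The sum of 8 osteoblast and stromal genes was 109 to 298 CPM, with Runx2 and Col1a2 present in all 15 and Sp7 and Lepr at 0 in 14. Of the lineage markers, the summed level of 6 B cell genes was 1938 CPM in endosteal library D labelled Gfra2-/- and 11.2 to 352 CPM in the other 14, and that of 9 erythroid genes was 683 CPM in the same library and 30.9 to 174 CPM in the others. The sum of 9 neutrophil and monocyte genes was 2633 and 3532 CPM in central WT libraries C and D and 477 to 1632 CPM in the other 13, with Lyz2 and Prtn3 present in all 15 and Elane at 0 in 14. The part of these cells in the results was not tested. CPM are read counts scaled by the library total after TMM adjustment, a scaling that sets the bulk of genes equal between libraries. In pools of cells, fewer cells of a type and less RNA per cell cannot be told apart.

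The promoters of 5 members are shown because these genes had the highest level (Ldha), an unadjusted p under 0.05 in both compartment comparisons (Pfkl), in the interaction of genotype and compartment (Hk2), or in the comparisons of Gfra2-/- libraries (Pdk3, Rpia). The sequences are the 250 bases before the start in RefSeq on GRCm38.p6, read 5′ to 3′ on the strand of the gene: Ldha at chr7:46845554-46845803 on the plus strand, and Pfkl at chr10:78009808-78010057, Hk2 at chr6:82774455-82774704, Pdk3 at chrX:93832151-93832400 and Rpia at chr6:70792176-70792425 on the minus strand. Capitals mark matches, on either strand, to ACGTG and GCGTG, which form the core of the hypoxia response element, and to CACGTG, the E-box bound by Myc and Max, which itself holds ACGTG.
Ldha: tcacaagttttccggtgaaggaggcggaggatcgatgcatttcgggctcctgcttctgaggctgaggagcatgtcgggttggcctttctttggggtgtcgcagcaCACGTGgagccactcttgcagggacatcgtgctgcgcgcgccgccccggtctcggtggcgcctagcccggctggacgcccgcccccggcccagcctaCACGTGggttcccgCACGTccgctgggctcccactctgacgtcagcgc
Pfkl: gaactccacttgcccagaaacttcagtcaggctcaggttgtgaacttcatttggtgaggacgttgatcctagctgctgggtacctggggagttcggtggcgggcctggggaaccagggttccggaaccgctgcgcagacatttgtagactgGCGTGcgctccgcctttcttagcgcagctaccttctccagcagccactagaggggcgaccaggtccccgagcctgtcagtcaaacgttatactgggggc
Hk2: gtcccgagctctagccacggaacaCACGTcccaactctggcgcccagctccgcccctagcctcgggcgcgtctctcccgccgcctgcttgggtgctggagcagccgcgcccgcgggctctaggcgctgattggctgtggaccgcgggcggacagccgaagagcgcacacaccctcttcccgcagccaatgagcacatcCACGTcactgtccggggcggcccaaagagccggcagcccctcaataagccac
Pdk3: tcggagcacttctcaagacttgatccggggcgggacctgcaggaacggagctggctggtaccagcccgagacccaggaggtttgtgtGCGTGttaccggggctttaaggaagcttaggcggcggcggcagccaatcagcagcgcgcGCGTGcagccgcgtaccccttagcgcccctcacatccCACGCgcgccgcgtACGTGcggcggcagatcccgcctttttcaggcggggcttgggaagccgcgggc
Rpia: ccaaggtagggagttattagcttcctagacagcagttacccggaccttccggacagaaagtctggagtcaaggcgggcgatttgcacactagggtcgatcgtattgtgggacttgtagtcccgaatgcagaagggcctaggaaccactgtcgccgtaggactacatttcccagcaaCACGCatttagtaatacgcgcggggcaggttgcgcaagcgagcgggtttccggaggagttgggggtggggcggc
A promoter entry was found for 40 of the 41 members, with 60 promoters in all, some of which overlap, and Slc2a3 was not among them. ACGTG stood in 21 of these 60 promoters (35%) and in 16.6% of 32851 promoters of the table. GCGTG stood in 31 of them (51.7%) against 28.2% of all, and CACGTG in 6, in as many members, against 6.02% of all. A match of this kind is a description of the letters and not of a bound site.

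Per exon length, the transcripts of a few enzymes prevailed. The mean level over the 15 libraries was 545 TPM for Ldha, the A subunit of lactate dehydrogenase, 350.1 TPM for Tpi1, the triosephosphate isomerase, 329 TPM for Aldoa, an aldolase that splits the sugar, and 237 TPM for Pkm, the last kinase of glycolysis. TPM are counts divided by the exon length of the gene and scaled to the same sum in every library, and they are the scale on which members are compared here. In the pentose phosphate pathway the highest means were those of Taldo1 (127 TPM), Pgls (121 TPM) and Tkt (109 TPM), and among the pyruvate dehydrogenase kinases that of Pdk3 (126 TPM). At the other end, Pfkfb1 was at 0 counts in 11 libraries and Pdk4 in 10, and neither had enough counts to be tested with edgeR in any of the 4 comparisons. Gapdh, which serves in many laboratories as a control gene, reached only 5.17 TPM on average. Of its 50-base words, 24.7% occurred in transcripts of 222 other annotated genes, and the alignment settings kept no read with more than 1 place in the genome. The same share was 53.9% for Pgk1, 36.2% for Pgam1, 25.99% for Eno1, 20.99% for Ldhb, 14.2% for Pkm, 9.26% for Ldha, 6.43% for Aldoa and 4.18% for Tpi1, so the levels of these genes are uncertain against those of others.

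**Figure D1:**
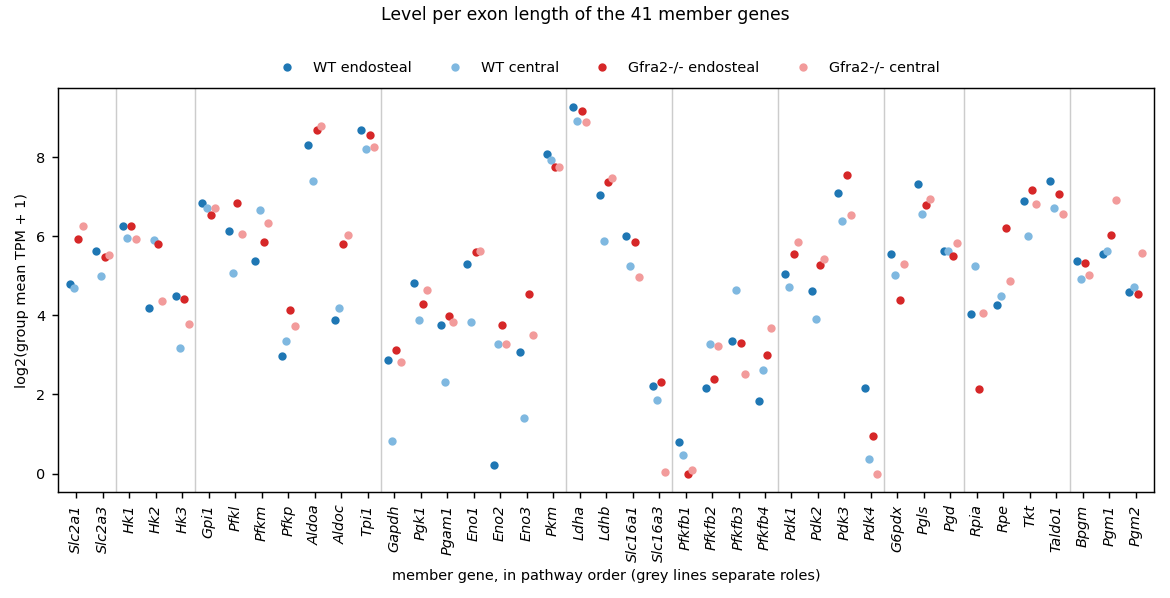
Mean level of each of the 41 members in the 4 groups, as log2(group mean TPM + 1) on the vertical axis, with the members in pathway order on the horizontal axis and 1 point per group. Ldha, Tpi1, Aldoa and Pkm stand highest, and Gapdh and the PFK-2/FBPase-2 genes stand low. For Pfkl, Aldoa, Gapdh, Pgam1, Eno1, Eno3 and Tkt, among others, the point of the central WT group lies below the other 3.

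Summed over the 41 genes, these transcripts made up 0.280, 0.348, 0.339 and 0.330% of TPM in the endosteal WT pools and 0.222, 0.212, 0.262 and 0.281% in the central WT pools. In libraries labelled Gfra2-/- they made up 0.334, 0.353, 0.315 and 0.386% of TPM in the 4 endosteal pools and 0.351, 0.287 and 0.317% in the 3 central pools. The central WT values were thus below those of all Gfra2-/- libraries, and they overlapped with those of endosteal WT HSCs by 1 library, D against A. By role, 7 genes of upper glycolysis summed to 607 to 882 TPM in central WT libraries and 973 to 1148 TPM in central libraries labelled Gfra2-/-, with no overlap, whereas hexokinases ranged over 72.8 to 218 TPM and 60.5 to 126 TPM. The 2 glucose carriers did not overlap in that comparison either, with 32.3 to 69.3 TPM in WT and 79.3 to 163 TPM in Gfra2-/- pools. The 4 genes of the non-oxidative pentose phosphate pathway summed to 283 to 364 TPM in endosteal and 185 to 275 TPM in central WT libraries, and to 322 to 387 TPM and 238 to 274 TPM in those labelled Gfra2-/-, without overlap in either genotype. The genes of a role did not all go the way of its sum. Rpia had a lower mean in endosteal than in central pools, 15.4 against 37.5 TPM in WT mice. In Gfra2-/- libraries its means were 3.42 and 15.7 TPM. Rpe had 18.1 against 21.7 TPM in WT pools. Of upper glycolysis, Aldoa had 168 TPM in central WT and 444 TPM in central Gfra2-/- pools, whereas Gpi1 and Pfkm had lower means in the latter. Of 40 pairs of role sums (10 roles in 4 comparisons), the 4 given above did not overlap. These sums were not tested.

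Which isozyme prevailed was stable for some families and varied between libraries for others. Aldoa made up 90.2% of aldolase transcripts per exon length on average over 15 libraries, Ldha 81.3% of lactate dehydrogenase and Slc16a1, a lactate carrier, 95.2% of the pair Slc16a1 and Slc16a3, and each was the larger part in all 15 libraries. Pdk3 was the largest of the 4 pyruvate dehydrogenase kinases in 14 libraries, with a mean share of 64.8% (46.7% of the reads where length is not divided out, on which it was largest in 9 libraries), and Eno1 the largest enolase in 13, with 73.4%. Among the hexokinases Hk1 led in 11 libraries (58.2%) and Hk2 in the other 4, and on reads without length in 13 and 2. Hk2 took 20.5 to 66.4% in central and 9.34 to 20.9% in endosteal WT libraries, and 13.2 to 40.2% in central and 11.3 to 63.9% in endosteal libraries labelled Gfra2-/-. The phosphofructokinases split between Pfkl, largest in 11 libraries, and Pfkm, largest in 4 (13 and 2 on reads without length), with 89.05% and 83.8% of the family in central WT libraries A and D. The glucose carriers Slc2a1 and Slc2a3 were near even per exon length, with Slc2a1 the larger in 8 libraries and Slc2a3 in 7, and Slc2a1 ranged from 4.82 to 78.8% of the pair, whereas on reads without length Slc2a3 was the larger in 13 libraries, with a mean of 67.2%. Among the PFK-2/FBPase-2 genes, which set the level of the activator of phosphofructokinase, Pfkfb3 led in 6, Pfkfb4 in 5 and Pfkfb2 in 4 libraries.

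**Figure D2:**
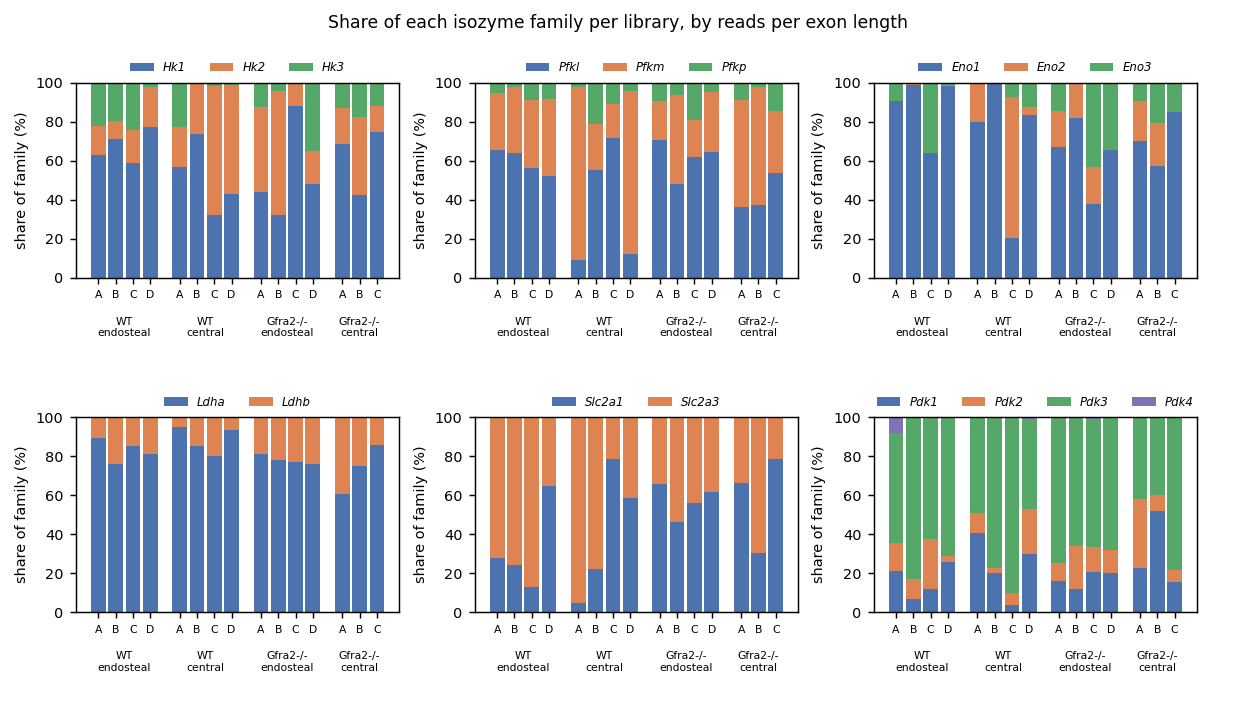
Share of each member in 6 isozyme families, in percent of the counts per exon length of the family, with 1 bar per library (A to D within each group) and 1 colour per gene. Ldha fills 60.8 to 95.05% of every bar, whereas Hk2, Pfkm and Eno2 take a large part of the bar in single libraries. Hk2 reaches 66.4% in central WT and 63.9% in endosteal libraries labelled Gfra2-/-. Pfkm reaches 89.05% in central WT and 60.6% in central libraries labelled Gfra2-/-, and Eno2 71.9% in central WT libraries.

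The spread between libraries of a group varied widely among the members. The SD of log2(CPM + 1) within groups had a median of 0.77 over the 36 members tested in all 4 comparisons and of 1.03 over 10859 genes tested in all 4, a difference that was not tested. It was 0.32 for Ldha, 0.26 for Gpi1, the isomerase that follows the hexokinases, and 0.34 for Pkm, but 2.21 for Pfkfb2. For Ldha (chromosome 7, 46841475 to 46855627 of GRCm38) the endosteal WT pools had 664, 704, 982 and 913 CPM and the central WT pools 806, 463, 627 and 901 CPM. In pools labelled Gfra2-/-, Ldha had 785, 492, 692 and 800.1 CPM in endosteal and 507, 625 and 613 CPM in central HSCs. For Tpi1 (chromosome 6, 124810586 to 124814296) the endosteal and central WT pools had 418, 441, 364 and 567 CPM and 216, 266, 554 and 394 CPM, respectively. In libraries labelled Gfra2-/-, Tpi1 had 233, 389, 362 and 485 CPM in the endosteal and 266, 285 and 390.0 CPM in the central pools. For both genes the ranges overlapped in each of the 4 comparisons, and the fitted log2 fold changes lay between -0.29 and 0.30 in the 4 comparisons.

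The remaining members had an unadjusted p above 0.05 in edgeR wherever they were tested and are given by their levels per exon length over the 15 libraries. In DESeq2, which called neither, the unadjusted p between the genotypes in endosteal BM was 0.0285 for Aldoc and 0.0400 for Pfkp. The glucose carrier Slc2a1 ranged over 2.84 to 108 TPM, with group means of 26.9 ± 28.6 TPM (SD, n = 4) for endosteal WT, 25.1 ± 23.5 TPM (SD, n = 4) for central WT, 60.1 ± 19.7 TPM (SD, n = 4) for endosteal Gfra2-/- and 75.6 ± 45 TPM (SD, n = 3) for central Gfra2-/- pools. Slc2a3 ranged over 13.4 to 78.7 TPM. Of the hexokinases, Hk1, which sits on mitochondria, ranged over 25.5 to 128 TPM and Hk3, known from myeloid cells, over 0.190 to 62.2 TPM. In upper glycolysis the ranges were 81.6 to 131 TPM for Gpi1, 9.70 to 189 TPM for Pfkm, 3.22 to 23.8 TPM for Pfkp and 0 to 90.99 TPM for Aldoc. Gpi1 thus varied least of these and Aldoc was at 0 in 1 library. Aldoc, the brain-type aldolase, had group means of 13.8 ± 13.3 TPM (SD, n = 4) for endosteal WT and 17.1 ± 19.9 TPM (SD, n = 4) for central WT pools, next to 54.8 ± 26.9 TPM (SD, n = 4) for the endosteal and 65.1 ± 17.5 TPM (SD, n = 3) for the central pools labelled Gfra2-/-. Its log2 fold change between the genotypes was 1.80 (SE 0.82, unadjusted p = 0.0533, FDR = 0.741) in endosteal BM and 1.60 (SE 1.20, unadjusted p = 0.206, FDR = 0.765) in central BM.

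In lower glycolysis Pgk1, the first step that yields ATP, ranged over 2.62 to 41.7 TPM and Eno3, the muscle enolase, over 0 to 59.9 TPM. Ldhb, the other subunit of lactate dehydrogenase, ranged over 27.9 to 286 TPM, with its lowest group mean in central WT libraries (57.7 ± 32.2 TPM, SD, n = 4), and the lactate carrier Slc16a1 over 8.61 to 104 TPM. The ranges were 6.06 to 89.1 TPM for Pdk1, 2.43 to 105 TPM for Pdk2, 0 to 17.4 TPM for Pfkfb2 and 0 to 16.9 TPM for Pfkfb4. In the oxidative pentose phosphate pathway, G6pdx, the enzyme of its entry step, ranged over 1.60 to 86.03 TPM, Pgls, the lactonase that follows, over 32.4 to 207 TPM, and Pgd, the next dehydrogenase, over 29.5 to 80.4 TPM. Tkt, the transketolase that links the pathway back to glycolysis, ranged over 28.2 to 188 TPM. Of the side branches, Bpgm, which makes a bisphosphoglycerate that binds haemoglobin, ranged over 9.59 to 70.1 TPM, and Pgm1 and Pgm2, phosphoglucomutases, over 15.9 to 166 TPM and 0.935 to 108 TPM. The 3 genes of the oxidative branch had log2 fold changes between -1.38 and 0.60 over the 4 comparisons, both ends from single genes, G6pdx between the genotypes in endosteal BM and Pgls between the compartments in WT mice. Beside Pfkfb1 and Pdk4, edgeR's filter on low counts left out Eno2, Eno3 and Slc16a3 in the WT comparison. It also left out Slc16a3 between the genotypes in central BM and Eno2 between them in endosteal BM. DESeq2 tested both of these.

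In WT mice the comparison asked how endosteal and central HSCs differ. Endosteal HSCs had higher values of Pfkl, Gapdh and Eno1 and lower values of Hk2 and Pfkfb3, none of them past a 10% FDR. In edgeR's quasi-likelihood test 0 of the 36 members tested passed it, as did 0 of 11181 genes (0%). At an unadjusted p under 0.05 there were 4 members against 7.89% of all genes tested. Of these, Pfkl and Gapdh were higher in endosteal HSCs, against 4.43% of all genes, and Hk2 and Pfkfb3 lower, against 3.46%. DESeq2 called 607 of 13421 genes (4.52%), among them 1 of 38 members, Gapdh (FDR = 0.0997). The groups did not overlap for Pfkl, Gapdh and Eno1, all higher in endosteal HSCs (8.33% of the members tested against 4.27% of all genes), and for 0 members lower in endosteal HSCs against 2.09% of all genes. The median log2 fold change was 0.23 over the members tested and 0.03 over all genes. The 5 tested genes of lower glycolysis had a median of 1.37, and the 3 tested PFK-2/FBPase-2 genes one of -1.50.

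Pfkl, the liver-type phosphofructokinase that commits sugar to glycolysis (chromosome 10, 77986947 to 78010083), had 149.9, 251, 189 and 138 CPM in the endosteal pools A to D, against 55.2, 132, 121 and 75.8 CPM in the central pools of WT mice. Every endosteal library was above every central one. The means were 182 ± 51.04 (SD, n = 4) and 95.9 ± 36.3 (SD, n = 4), and the log2 fold change was 0.91 (SE 0.42, unadjusted p = 0.0486, FDR = 0.626). The exact two-sided permutation test gave p = 0.0286, the smallest that 4 libraries against 4 allow, and the unadjusted p was under 0.05 in 6 of 18 alternatives, with DESeq2 counted among them. Within libraries with a spike-in share above 0.5% the difference in mean log2(CPM + 1) of Pfkl was 0.996, and between the 2 libraries below it 0.85. Gapdh, the glyceraldehyde-3-phosphate dehydrogenase, had 3.90, 8.06, 16.1 and 13.1 CPM against 0, 2.80, 1.34 and 1.35 CPM, which are 16, 121, 177 and 160 against 0, 9, 1 and 4 counts, so its fold change of 2.79 (SE 1.14, unadjusted p = 0.0289, FDR = 0.586) on the log2 scale rests on few reads of a gene with many copies. Eno1, the main enolase (chromosome 4, 150236721 to 150248879), had 59.2, 79.8, 101 and 85.7 CPM in the endosteal and 8.15, 44.1, 22.8 and 48.5 CPM in the central libraries. Here too the groups did not overlap (exact permutation p = 0.0286), with a log2 fold change of 1.37 (SE 0.65, unadjusted p = 0.0574, FDR = 0.633). Eno1, Gapdh and Pgam1 share many words with other genes, and all 3 were lowest on average in central WT libraries, the shallowest group. Pfkl and Tkt, not among the genes listed above for such words, were lowest there too, with means of 95.9 and 210 CPM. Hk2 and Pfkfb3 were highest there on average. The part of shared sequence was not tested. With all libraries thinned to 826487 reads, Pfkl had a log2 fold change of 0.82 (unadjusted p = 0.0816 in edgeR).

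Hk2, the inducible hexokinase (chromosome 6, 82725025 to 82774454), had 79.2, 22.8, 29.8 and 33.5 CPM in endosteal WT libraries and 68.8, 68.7, 393 and 99.4 CPM in central ones. The groups overlapped by endosteal library A, and central library C stood far above the rest. Central libraries C and D had 2633 and 3532 CPM of neutrophil and monocyte genes, and A and B 610 and 542 CPM. The part of these cells in the values of Hk2 and Pfkfb3 was not tested. The log2 fold change of Hk2 was -1.94 (SE 0.68, unadjusted p = 0.0135, FDR = 0.508), and -0.95 (unadjusted p = 0.158 in edgeR) without central library C. Pfkfb3, whose product makes the activator of phosphofructokinase (chromosome 2, 11471433 to 11554077), had 29, 54.4, 8.90 and 15.4 CPM in endosteal and 40.7, 101, 137 and 43.8 CPM in central WT libraries. Endosteal library B lay among the central values, and the log2 fold change was -1.60 (SE 0.74, unadjusted p = 0.0490, FDR = 0.626). The glucose carriers did not separate the groups, with log2 fold changes of -0.08 for Slc2a1 and 0.43 for Slc2a3. Without the 2 central libraries that fell short of the quality cut-offs, the count of members at an unadjusted p under 0.05 was 1 instead of 4. The count of all genes was then 949 of 13737. With single libraries left out, 1 to 5 members were under it, with 1 without endosteal library C and 1 without endosteal library D. Of all genes it was then 681 of 11463 to 1170 of 11947.

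The same compartments were then compared in the pools labelled Gfra2-/-, of which endosteal B and D had 47 and 9 reads of Gfra2. Endosteal pools had higher values of Pfkl and Pdk3 and lower values of Rpia. Of 39 members tested, 0 passed a 10% FDR in edgeR, as did 0 of 13860 genes (0%). At an unadjusted p under 0.05 there were 5 members against 4.79% of all genes. Of these, Pfkl, Pdk3, Rpe and Slc16a3 were higher in endosteal HSCs, against 2.74% of all genes, and Rpia lower, against 2.05%. DESeq2 called 395 of 14342 genes (2.75%), among them 2 of 40 members, Slc16a3 and Pdk3 (FDR = 0.0800 for Pdk3). The groups did not overlap for Pfkl and Pdk3, both higher in endosteal HSCs (5.13% of the members tested against 3.67% of all genes), and for 0 members in the other direction against 3.67%. The median log2 fold change was -0.05 over the members and 0.03 over all genes. Without endosteal libraries B and D, 1 member had an unadjusted p under 0.05, beside 725 of 14293 genes. Leaving out single libraries gave 1 to 4 members in place of 5, beside 560 of 13347 to 838 of 14767 genes. There was 1 without endosteal library A, 2 without central library A, 4 without endosteal library C and 3 without each of the others. With thinned counts it was 1, beside 488 of 10017 genes.

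Pfkl had 356, 254, 195 and 269 CPM in the endosteal and 137, 174 and 179 CPM in the central libraries, so that each endosteal library was above the central ones, as in WT mice, with which this comparison shares no library. The log2 fold change of Pfkl was 0.72 (SE 0.28, unadjusted p = 0.0311, FDR = 0.999), next to 0.91 in WT HSCs, and its exact permutation p was 0.0571. Pdk3, a kinase that inhibits pyruvate dehydrogenase (chromosome X, 93764607 to 93832201), had 178, 159, 131 and 210.4 CPM in endosteal and 111, 67.1 and 79.1 CPM in central libraries. Its means were 169.6 ± 33.5 (SD, n = 4) and 85.7 ± 22.6 (SD, n = 3), without overlap (exact permutation p = 0.0286), and its log2 fold change was 0.99 (SE 0.31, unadjusted p = 0.0114, FDR = 0.896). Within libraries of higher spike-in share the difference of Pdk3 was 0.83, and between the 2 of lower share 1.40, in mean log2(CPM + 1). In WT libraries Pdk3 had 105, 171, 97.8 and 168 CPM in endosteal and 37.1, 89.5, 170.3 and 79.9 CPM in central HSCs, where the groups overlapped by central library C. The other kinases of this family, Pdk1 and Pdk2, had log2 fold changes of -0.35 and -0.14 in libraries labelled Gfra2-/-.

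In the non-oxidative pentose phosphate pathway, 2 neighbouring enzymes that draw on the same substrate had values that differed in opposite directions, neither past the FDR. Rpia, the ribose-5-phosphate isomerase (chromosome 6, 70765720 to 70792232), had 8.73, 3.23, 6.25 and 8.41 CPM in endosteal and 48.3, 5.01 and 37.9 CPM in central libraries labelled Gfra2-/-. Central library B lay among the endosteal values, and the log2 fold change was -2.18 (SE 0.93, unadjusted p = 0.0437, FDR = 0.999). Rpe, the ribulose-5-phosphate epimerase (chromosome 1, 66700831 to 66719805), had 111, 57.1, 46.6 and 111 CPM in endosteal and 31.4, 15.3 and 50.7 CPM in central libraries. The groups overlapped by endosteal library C and central library C, and the log2 fold change of Rpe was 1.33 (SE 0.56, unadjusted p = 0.0428, FDR = 0.999). Part of Rpe (17.9% of its exon length) overlaps Kansl1l, and reads there cannot be told apart without strand. Slc16a3, a lactate exporter of strongly glycolytic cells, reached 259, 191, 15 and 2 counts in the endosteal pools against 0, 2 and 0 counts in the central ones, and with so few in the central pools no fold is stated. Endosteal library D was at the level of the central ones.

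Between the genotypes in central BM, where the central WT libraries of the first comparison and the central Gfra2-/- libraries of the second were used again, 38 members were tested. Libraries labelled Gfra2-/- had higher values of Aldoa and Eno1 and lower values of Hk2 and Pfkfb3. In edgeR 0 members passed a 10% FDR, against 6 of 11772 genes (0.051%), and 4 had an unadjusted p under 0.05 against 8.73% of all genes. These were Aldoa and Eno1, higher in libraries labelled Gfra2-/- against 4.6% of all genes, and Hk2 and Pfkfb3, lower against 4.14%. DESeq2 called 730 of 13703 genes (5.33%), among them 2 of 39 members, Pfkfb3 and Slc16a3. The groups did not overlap for 7 members that were higher in these libraries, Pfkl, Aldoa, Aldoc, Gapdh, Pgam1, Eno1 and Eno3, which are 18.4% of the members tested against 7.99% of all genes. For Hk2 and Pfkfb3 they did not overlap in the other direction (5.26% against 4.44%). Of these 7, the central WT pools had 0, 0, 2 and 7 counts of Eno3 and 73, 86, 6 and 0 of Aldoc. Leaving out single libraries gave 3 to 5 members at an unadjusted p under 0.05, beside 781 of 12457 to 1292 of 12011 genes. Leaving out central WT libraries A and C gave 3, beside 1270 of 13692 genes. The median log2 fold change was 0.13 over the members and 0.03 over all genes.

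Aldoa (chromosome 7, 126795234 to 126800751) had 493, 425 and 512 CPM in central libraries A to C labelled Gfra2-/- and 118, 238, 284 and 219 CPM in central WT libraries A to D. The lowest Gfra2-/- library stood above the highest WT library. The means of Aldoa were 477 ± 45.8 (SD, n = 3) and 215 ± 70.3 (SD, n = 4), the log2 fold change was 1.13 (SE 0.34, unadjusted p = 0.00663, FDR = 0.357), and the exact permutation test gave p = 0.0286, the smallest it allows for 4 libraries against 3. The unadjusted p stayed under 0.05 in 16 of 17 alternatives, DESeq2 included. The difference of Aldoa in mean log2(CPM + 1) was 1.19 within libraries of higher and 1.22 between the 2 of lower spike-in share. Aldoa in endosteal HSCs had 228, 404, 520.1 and 297 CPM in WT libraries and 471, 325, 473 and 467 CPM in libraries labelled Gfra2-/-, where the ranges overlapped and the log2 fold change was 0.26. Eno1 had 68.7, 81.2 and 143 CPM in central libraries labelled Gfra2-/- against the 8.15, 44.1, 22.8 and 48.5 CPM of central WT libraries given above. Its log2 fold change was 1.62 (SE 0.72, unadjusted p = 0.0434, FDR = 0.554), and 1.03 (unadjusted p = 0.113 in edgeR) without central WT libraries A and C. Gapdh had 8.79, 7.85 and 11.04 CPM against 0, 2.80, 1.34 and 1.35 CPM, and Pgam1, the phosphoglycerate mutase, 7.15, 9.83 and 12.2 CPM against 1.81, 3.42, 2.68 and 5.73 CPM, both on few reads in the WT libraries.

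Pfkfb3 had 10.6, 24.1 and 4.88 CPM in central libraries labelled Gfra2-/- and 40.7, 101, 137 and 43.8 CPM in central WT libraries. All 3 values lay below the 4 of the WT group (exact permutation p = 0.0286). The means were 13.2 ± 9.87 (SD, n = 3) and 80.6 ± 46.6 (SD, n = 4), and the log2 fold change was -2.63 (SE 0.85, unadjusted p = 0.00924, FDR = 0.372), with an FDR of 0.0193 in DESeq2. Within libraries with a spike-in share above 0.5% the difference in mean log2(CPM + 1) of Pfkfb3 was -2.29, and between the 2 libraries below it -2.93. Hk2 had 46.7, 55.9 and 27.1 CPM in central libraries labelled Gfra2-/- against 68.8, 68.7, 393 and 99.4 CPM in WT, again without overlap, and its log2 fold change was -1.88 (SE 0.71, unadjusted p = 0.0212, FDR = 0.470). Without central WT library C the log2 fold change of Hk2 was -0.90 (unadjusted p = 0.162 in edgeR). Over the 4 groups the mean of Hk2 was highest in central WT libraries, at 157 ± 158 (SD, n = 4) CPM, followed by 110.1 ± 105 (SD, n = 4) CPM in endosteal libraries labelled Gfra2-/-, 2 groups that overlapped.

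Between the genotypes in endosteal BM, libraries labelled Gfra2-/- had lower values of Pkm, Rpia and Taldo1. Of 38 members tested, 0 passed a 10% FDR in edgeR as did 0 of 12970 genes (0%), and 2 had an unadjusted p under 0.05 against 6.69% of all genes. These were Pkm and Rpia, both lower in libraries labelled Gfra2-/-, against 3.52% of all genes, and 0 members were higher, against 3.18%. DESeq2 called 531 of 14384 genes (3.69%), among them 2 of 40 members in opposite directions. Rpia (FDR = 0.0519) was lower and Eno2 (FDR = 0.0085) higher in libraries labelled Gfra2-/-. Eno2, not tested in edgeR here, had 21.2 ± 18.8 CPM (SD, n = 4) in these and 0.285 ± 0.355 CPM (SD, n = 4) in WT libraries. Its counts are given with the interaction below. The groups did not overlap for Pkm, Rpia and Taldo1, all lower in libraries labelled Gfra2-/- (7.89% of the members tested against 3.55% of all genes), and for 0 members higher in them against 2.69%. The median log2 fold change was 0.14 over the members and 0.03 over all genes. Without endosteal libraries B and D labelled Gfra2-/-, 3 members had an unadjusted p under 0.05, beside 725 of 14501 genes. Leaving out single libraries gave 2 to 5 members, beside 755 of 13598 to 1026 of 13547 genes. There were 5 without endosteal WT library C and 5 without Gfra2-/- library D, the library with the high sums of B cell and erythroid genes.

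Pkm (chromosome 9, 59656368 to 59679375) had 571, 534, 539.9 and 495 CPM in endosteal WT libraries and 405, 409, 271 and 437 CPM in endosteal libraries labelled Gfra2-/-. Each of the latter was below each WT library (exact permutation p = 0.0286), and the log2 fold change was -0.49 (SE 0.21, unadjusted p = 0.0417, FDR = 0.737). In central BM Pkm had 501, 427, 497 and 696 CPM in WT libraries and 481, 237 and 464 CPM in libraries labelled Gfra2-/-, where the ranges overlapped. Of the exon length of Pkm, 15.3% overlaps Gm49759. Rpia had 77, 28.8, 10.4 and 17.1 CPM in endosteal WT libraries and the 8.73, 3.23, 6.25 and 8.41 CPM given above in those labelled Gfra2-/-, without overlap (exact permutation p = 0.0286). Its log2 fold change was -2.31 (SE 0.85, unadjusted p = 0.0211, FDR = 0.737), and -1.51 (unadjusted p = 0.107 in edgeR) without endosteal WT library A, which held the highest value. Endosteal HSCs labelled Gfra2-/- thus had the lowest Rpia of the 4 groups, overlapping only with central library B of the same label. Taldo1, the transaldolase that works beside transketolase (chromosome 7, 141392199 to 141402968), had 161, 149, 126 and 144 CPM against 124, 107, 74.6 and 104 CPM, with a log2 fold change of -0.50 (SE 0.28, unadjusted p = 0.101, FDR = 0.765). Rpe, in contrast, had 0.731, 23.8, 49.7 and 13.3 CPM in endosteal WT libraries and 111, 57.1, 46.6 and 111 CPM in those labelled Gfra2-/-, a log2 fold change of 1.90 (SE 0.90, unadjusted p = 0.0601, FDR = 0.743) with 1 overlapping pair, WT library C and Gfra2-/- library C.

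Whether the difference between compartments itself differed with genotype was tested over all 15 libraries. Of 40 members, 0 passed a 10% FDR in edgeR, as did 0 of 15416 genes (0%), and 2 had an unadjusted p under 0.05 against 6.97% of all genes. These were Hk2 and Eno2, both with a value above 0 against 2.56% of all genes, and 0 members had a value below 0 against 4.41%. DESeq2 called 243 of 14502 genes (1.68%), among them 2 of 40 members, Hk2 and Pdk4, which was at 0 in 10 libraries. Leaving out single libraries gave 1 to 4 members at an unadjusted p under 0.05, beside 1006 of 15118 to 1225 of 16577 genes. There were 4 without endosteal WT library A, endosteal WT library B or central WT library D. There was 1 without endosteal WT library C or D, endosteal Gfra2-/- library A or central Gfra2-/- library C. For Hk2 the endosteal minus central difference was -1.94 in WT and 1.35 in libraries labelled Gfra2-/-, on the log2 scale. Hk2 had 76.6, 265, 32.7 and 65.5 CPM in the endosteal libraries labelled Gfra2-/-, with library B highest, against 46.7, 55.9 and 27.1 CPM in the central ones. The interaction was 3.27 (SE 1.04, unadjusted p = 0.00569, FDR = 0.537), with an FDR of 0.0796 in DESeq2, and the unadjusted p was under 0.05 in 24 of 25 alternatives, DESeq2 included. It was 2.27 without central WT library C and 2.23 without endosteal Gfra2-/- libraries B and D. Eno2, the neuronal enolase, was counted 0, 11, 0 and 5 times in the endosteal and 2, 1, 52 and 6 times in the central WT pools. Pools labelled Gfra2-/- gave 314, 348, 395 and 1 counts of it in endosteal and 270, 294 and 0 in central HSCs. The interaction for Eno2 was 6.30 (SE 2.86, unadjusted p = 0.0413, FDR = 0.691) and 2.54 without central WT library C, the only central WT library with more than 6 counts.

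**Figure D3:**
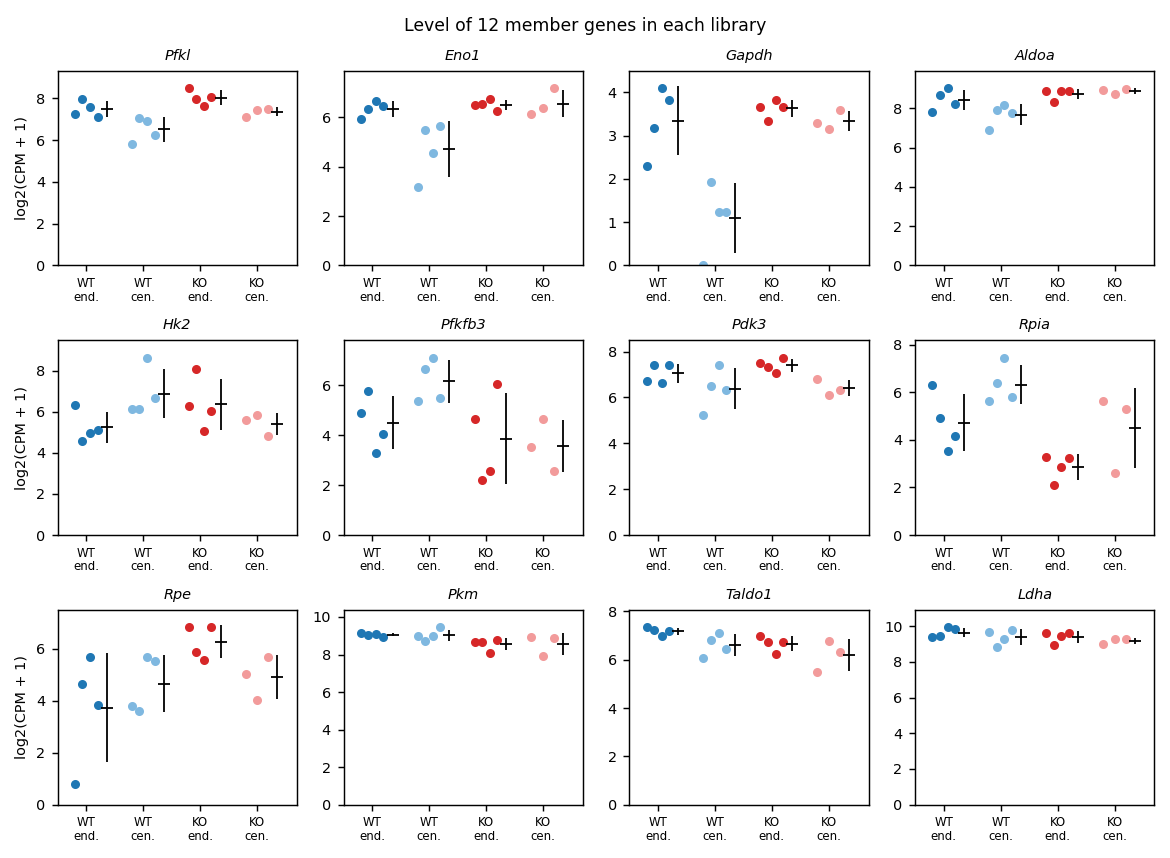
Level of 12 members in each library, as log2(CPM + 1) on the vertical axis, with 1 point per library, and beside each group its mean with the SD as bars (n = 4, and n = 3 for central libraries labelled Gfra2-/-, KO). Pfkl is higher in endosteal than in central HSCs of both genotypes, Gapdh and Eno1 in central WT libraries lie below all other libraries, Aldoa has its lowest mean there, Hk2 and Pfkfb3 are highest there on average, and Ldha overlaps between the groups of each of the 4 comparisons.

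**Figure D4:**
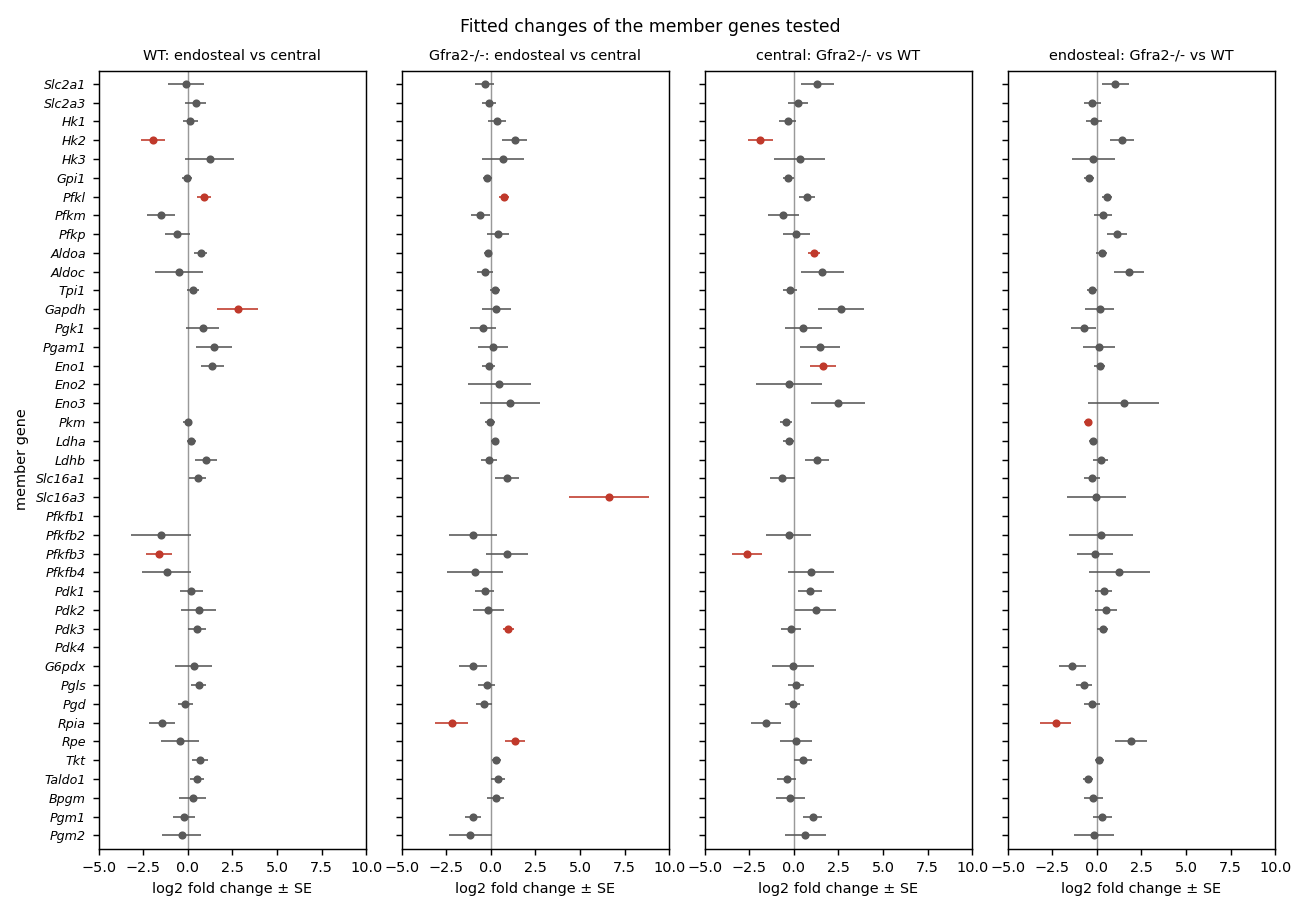
Fitted log2 fold changes of the members tested in each of the 4 comparisons, with the standard error as bars and the members in pathway order from top to bottom. Red marks an unadjusted p under 0.05 in edgeR, which holds for 4, 5, 4 and 2 members from left to right, and 0 members passed a 10% FDR.

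The scaling moved the values of all genes against central WT HSCs, the members included. With size factors from the spike-in RNAs, the median of all genes was 1.58 in the WT comparison and 1.75 between the genotypes in central BM, on the log2 scale. The spike-in share itself varied within groups, from 0.192 to 2.98% in endosteal and from 0.421 to 7.10% in central WT libraries. Whether these factors follow RNA content was not tested. With the TMM scaling 21 of 36 members had values above 0 in the first comparison, against 51.5% of all genes, and 21 of 38 in the second, against 51.4%. With the spike-in scaling these were 31 and 37, and at an unadjusted p under 0.05 there were 2 higher and 0 lower members in each, in place of 2 and 2. Of all genes tested, 6.31% were then higher and 0.0715% lower in the first, and 10.5% higher and 0.0765% lower in the second. Relative to the median of all genes, the differences in WT HSCs were 0.83 for Pfkl, 3.21 for Gapdh, -1.80 for Hk2 and -1.59 for Pfkfb3. Between the genotypes in central BM they were 1.05 for Aldoa, 1.27 for Eno1, -1.73 for Hk2 and -2.69 for Pfkfb3. In the comparisons without central WT libraries this median was -0.46 between the compartments in libraries labelled Gfra2-/- and -0.28 between the genotypes in endosteal BM, and 13 of 39 and 15 of 38 members had values above 0. With the TMM scaling these were 19 and 20, against 51.6 and 51.5% of all genes, and 15 of 40 in the interaction, against 46.3%.

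A list of 71 other genes of glucose metabolism and its control was read alongside. Of these, 44, 52, 47 and 52 were tested in the 4 comparisons in the order above, and 0 passed a 10% FDR in edgeR in any of them. At an unadjusted p under 0.05 there were 3, 5, 1 and 2, respectively, against 7.89, 4.79, 8.73 and 6.69% of all genes tested. H6pd, which runs the oxidative pentose steps inside the endoplasmic reticulum, had 26.1, 65.3, 17.5 and 87.5 CPM in endosteal and 10.9, 10.9, 2.68 and 5.39 CPM in central WT libraries, without overlap and with a log2 fold change of 2.68 (SE 0.90, unadjusted p = 0.0110, FDR = 0.492). In libraries labelled Gfra2-/- H6pd had 53.2, 73.8, 70.2 and 171 CPM in endosteal and 17.5, 39.99 and 34.2 CPM in central pools, again without overlap, and a log2 fold change of 1.59 (SE 0.55, unadjusted p = 0.0185, FDR = 0.945). Prps1 and Prps2 turn ribose 5-phosphate into the precursor of nucleotides. Prps2 had log2 fold changes of 2.08 (SE 0.79, unadjusted p = 0.0207, FDR = 0.578) in WT libraries and 2.06 (SE 0.69, unadjusted p = 0.0160, FDR = 0.922) in those labelled Gfra2-/-, with higher means in endosteal HSCs. Its groups overlapped in both genotypes. Endosteal WT library D had 39.1 CPM against 50.6 CPM in central WT library D. Endosteal Gfra2-/- library C had 37.8 CPM against 40.7 CPM in central library B so labelled. The exact permutation p was 0.0571 in WT and 0.0857 in Gfra2-/- libraries. Prps1 had 615, 266, 390.2 and 283 CPM in central WT libraries, each above the 173, 164, 172 and 142 CPM of the endosteal ones, with a log2 fold change of -1.28 (SE 0.34, unadjusted p = 0.00225, FDR = 0.390). Against central libraries labelled Gfra2-/-, which had 157, 86.7 and 166 CPM, its log2 fold change was -1.53 (SE 0.42, unadjusted p = 0.00318, FDR = 0.318). Myc, which drives many genes of glycolysis, had 133, 163, 119 and 142 CPM in endosteal WT libraries and 219.7, 342, 198 and 237 CPM in endosteal libraries labelled Gfra2-/-, without overlap, and a log2 fold change of 0.84 (SE 0.26, unadjusted p = 0.00857, FDR = 0.696). The others at this threshold were Slc2a9, in 2 comparisons, and Epas1 and Myc between the compartments in libraries labelled Gfra2-/-. In the interaction 6 of 55 tested had an unadjusted p under 0.05, against 6.97% of all genes, and 0 passed a 10% FDR.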

How the data were processed

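RNA was amplified with Smart-seq2 from pools of 30 HSCs and sequenced on an Illumina HiSeq. The authors aligned reads to mm10 with GSNAP and deposited 1 table of HTSeq 0.5.3p3 read counts per gene, not normalised, counted without strand and without reads of several genomic positions. Columns were assigned to groups by the names in the sample lists of the study, which give no replicate numbers. Of 16 labelled samples 15 had such a column, and 1 further column could not be mapped and was not used. Rows that name no gene (92 spike-in RNAs and 5 summary rows) were left out of library sizes and tests. Gene names came from GENCODE M21 on GRCm38, for 45143 of 46078 genes.

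Genes passing filterByExpr were tested with edgeR 4.0.16 (R 4.3.3; TMM, quasi-likelihood test) in fits of the 2 groups compared, or of all 4 groups for the interaction, with Benjamini-Hochberg adjustment over all genes tested and an FDR of 0.1. DESeq2 1.42.0 served as an alternative. Single genes were also tested by an exact two-sided permutation of libraries on log2(CPM + 1) (scipy 1.17.1). The other alternatives were DESeq2 and spike-in size factors, other filters on low counts, counts thinned to the smallest library, 1 fit of all groups, an FDR of 0.05, subsets of libraries and, chosen after seeing the data, a block by sets of 4 running column numbers. TPM used the summed exon length of a gene. The scripts were tested on simulated data. The quality cut-offs of the study (1500000 mapped reads, 20% mitochondrial reads, 8500 genes) were applied with genes counted from 10 reads, a definition chosen here. Members and lists were chosen with earlier results of these data known. Values in every library were given for members with an unadjusted p under 0.05 in any comparison or the interaction and for the 3 of highest mean TPM. All members may be named, as may other pathway genes with an unadjusted p under 0.05.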

Additional observations from a re-analysis of the deposited data

Results flagged for a closer look

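Dixon's test was applied to the CPM of named members in each group of 4 libraries, which gave 42 groups, of which 5 held a library far from the other 3. Chance flags about 1 in 20 groups. Central WT library C was such a library for 3 genes, with 393 CPM of Hk2, 69.7 CPM of Eno2 and 22.8 CPM of Slc16a3, each above the other central WT libraries. It was the shallowest of the 15 libraries, with 826487 reads on genes. Its sum of neutrophil and monocyte genes was 2633 CPM, beside 610, 542 and 3532 CPM in central WT libraries A, B and D. The part of depth or of these cells was not tested. Slc16a3 also stood apart in endosteal WT library B, with 24.4 CPM. For Aldoa, endosteal library B labelled Gfra2-/- was low, with 325 CPM, and this library is 1 of the 2 so labelled with more than 3 reads of Gfra2.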

How the results depend on the processing

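The count of members past a 10% FDR was 0 in every comparison with edgeR, under every alternative that kept edgeR. With DESeq2 it was 1 between the compartments in WT mice, 2 between them in libraries labelled Gfra2-/-, 2 between the genotypes in central BM, 2 between them in endosteal BM and 2 in the interaction, where DESeq2 called 4.52, 2.75, 5.33, 3.69 and 1.68% of all genes. The cause was not tested. With spike-in size factors the median log2 fold change of the members was 1.90, -0.24, 2.00, -0.13 and -2.03 in the same order, and the medians of all genes were 1.58, -0.46, 1.75, -0.28 and -2.18. The fold change of Hk2 between the genotypes in central BM then became 0.027, which is -1.73 relative to the median of all genes. Thinning counts moved the median of the members to 0.16 between the compartments in libraries labelled Gfra2-/-, -0.12 between the genotypes in central BM and -0.0062 in the interaction. It was 0.40 in WT mice with only libraries past the quality cut-offs, -0.072 between the genotypes in endosteal BM with at least 10 counts in every library, and -0.035 in the interaction with DESeq2 size factors. In libraries labelled Gfra2-/- it ranged from -0.13 to 0.18 when single libraries were left out. These causes were not tested. Among fold changes of named members under other settings, 155 kept their direction and their side of the FDR, 6 passed it, all with DESeq2, and 1 was the reversed value of Hk2. With a library left out, all 138 kept both. Column names of the deposited table hold running numbers, which could not be tied to the replicate numbers of the labels but run through the groups in sets of 4. In gene levels, libraries of the same set did not deviate together from their group means, so the sets were not taken as pairs. The correlations were -0.042 to 0.039 over 11961 genes in 21 pairs, none above 0.1, with 5 of 15 libraries closest to their own set. Spike-in share did go with the sets. The last set alone held libraries under 0.5%, with 0.192% in endosteal and 0.421% in central WT library D. The other libraries of that set, endosteal D and central C labelled Gfra2-/-, had 0.240% each. The comparisons by spike-in share thus also split the libraries by set. The part of the sets in the results was not tested further than by the block below. With a replicate block by set, chosen after seeing the data, 0 members passed a 10% FDR in edgeR in any comparison, and the members at an unadjusted p under 0.05 were 5, 4, 3, 1 and 2, in place of 4, 5, 4, 2 and 2. Of all genes, 5, 0, 1, 0 and 0 passed, in place of 0, 0, 6, 0 and 0. The median of the members under this block was 0.27, 0.074, 0.37, 0.18 and -0.22. Central WT libraries, with 826487 to 3367289 reads, limit what could be detected for members with few reads, such as Gapdh, Pgam1 and Slc16a3.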
